A study of Neurospora crassa with 12 samples.

Results

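Germ tube extension (stage 3) was compared with fresh conidia (stage 1) in Neurospora crassa across all genes of the count table, using 6 of the 12 libraries of the series, 3 per stage. The members were taken by their stage labels, and the question was which transcripts differ between a spore that has just been plated and the tube that grows out of it at high temperature. All cultures were of the wild-type strain FGSC2489 (mat A), inoculated as a conidial suspension on cellophane over Bird medium, a medium for asexual growth, and kept at 37 °C under continuous white light. Stage 3 was sampled when the longest axis of most spores had doubled. It is placed at 120 min after inoculation by the sample titles and at 240 min by the time point tags, whereas both place stage 1 at 15 min. The study's methods give the course of the titles for this medium and temperature and that of the tags for another medium, PDA, which the source name also mentions. The medium is taken here from the growth protocol, and the stages are named by number. A replicate pooled the growth of several plates, and p-values measure only the spread between such pools.

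Conidia are the dry, wind-dispersed asexual spores of this fungus. They carry a coat of hydrophobin and stores of trehalose and messenger RNA. On germination the spore takes up water, resumes translation and energy metabolism, selects a site of polar growth and extends a germ tube, and neighbouring germlings can fuse into 1 network.

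Total counts were 65152457 to 71273660 in the stage 3 libraries and 66829396 to 71990884 in the stage 1 libraries. The 2 ribosomal RNA rows, which were left out of the library sizes and the fit, took 7.52%, 37.7% and 5.37% of the counts in stage 3, against 7.10%, 2.44% and 3.07% in stage 1. A count of 3 corresponded to 0.0468 to 0.0634 CPM (counts scaled to a common library size with TMM factors) in stage 3 and to 0.0454 to 0.0491 CPM in stage 1. Over 5270 genes with at least 10 CPM in both stages, the SD of differences in log2(CPM + 1) between stage 3 replicates 1 and 3 was 0.153, and between stage 1 replicates 2 and 3 it was 0.157. Pairs that included stage 3 replicate 2 or stage 1 replicate 1 gave 0.244 to 0.253, so these 2 libraries stood somewhat apart. The mean profiles of stages 3 and 1 differed with an SD of 1.05, against 0.36 both between stages 3 and 2 (polar growth) and between stages 3 and 4 (first branching), and 0.0726 between stages 4 and 2. Levels of stages 2 and 4 are given for some genes as a description only. All 6 conidial markers (eas, con-6, con-8, con-10, con-13 and ccg-1) were present in stage 1, with a summed level of 13890 to 16900 CPM, and fell to 12.9 to 16.1 CPM in stage 3. Of 8 sexual tissue markers found, 7 were lower in stage 3 and 1 was not tested, with sums of 122 to 143 CPM in stage 3 and 427 to 454 CPM in stage 1, and the marker of the other mating type had no count in any library.

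Expression differed between germ tube extension and fresh conidia for 6545 of 8334 genes tested (78.5%, edgeR quasi-likelihood test, adjusted p below 0.05). Of these, 3395 genes (40.7% of those tested) were higher in stage 3 and 3150 (37.8%) were lower. More than 2-fold changes were called for 1628 higher genes (19.5%) and 1480 lower genes (17.8%). The 3 libraries of stage 3 did not overlap those of stage 1 for 6534 genes (78.4%). The median log2 change of all genes tested was 0.03, with the middle 50% of genes between -0.70 and 0.77, and a median standard error of 0.096. Of the genes called, 52 were higher and 135 lower by more than 32-fold, of which only 6 and 17 have a symbol in the annotation. The tested genes include 348 that reached the level of the expression filter in stage 1 alone and 142 in stage 3 alone. The fitted change of a gene with no count in 1 stage has no fixed size, and the counts above 32-fold carry that limit. No count was found in stage 1 for 22 genes counted in every stage 3 library, and none in stage 3 for 111 genes counted in every stage 1 library. All these are relative levels, and with bulk tissue a change in the share of cells cannot be told apart from a change in RNA per cell.

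**Figure D1:**
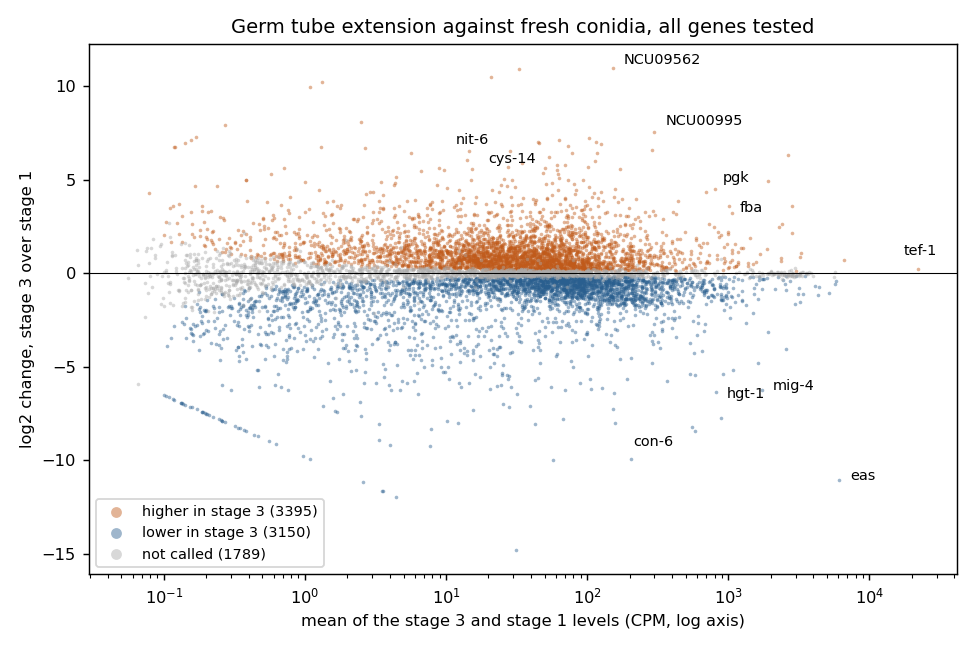
Log2 change of stage 3 (germ tube extension) over stage 1 (fresh conidia) against the mean of both levels in CPM on a log axis, 1 point for each of 8334 genes tested. Orange points are the 3395 genes higher in stage 3, blue points the 3150 genes lower, and grey points were not called. Points on the diagonal at the lower left are genes with no count in stage 3, whose fitted change has no fixed size.

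The balance of higher and lower calls moved with the scaling. Library totals without a scaling factor shifted the median log2 change of all genes to 0.16, and the calls were then 3753 higher and 2751 lower (57.7% of the called genes higher, against 51.9% with TMM). No gene called in both fits changed direction under any alternative, and nor-1, of small change, lost its call and its direction with library totals. The annotated spans of ada-1, adh-1, cdt-1, con-6, emp-3, erp38, fpp, gh47-4, gnn, hH2Az, hH2B, hsf-1, hsp30, mak-1, oli, pdx-1, pdx-4, pma-1, tba-1 and tca-16 overlap a neighbouring gene, and their counts may hold reads of that neighbour.

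Counts of called list members are to be read beside all genes tested, of which 40.7% were higher and 37.8% lower. Of all the gene lists, conidiation genes had the lowest median change. eas encodes the hydrophobin of the rodlet layer that makes conidia dry and water-repellent (NCU08457, chromosome II, 3570905 to 3572798, assembly NC12). It had 5.94, 6.17 and 5.23 CPM in the stage 3 libraries, against 13570, 11520 and 11610 CPM in the stage 1 libraries. This is 2119-fold lower in stage 3 (log2 change -11.05 ± 0.20, SE, edgeR adjusted p = 2.4e-14). In fresh conidia eas was also among the 5 most abundant protein-coding transcripts per length, at 6458 CPM per kb of annotated gene, against 3.05 CPM per kb in stage 3. con-6, a small conidiation protein, had 4.01, 2.98 and 2.86 CPM in stage 3, against 1435, 954 and 1065 CPM in stage 1. ccg-1, a clock-controlled gene, had 3.33, 4.76 and 3.01 CPM in stage 3, against 1373, 976 and 966 CPM in stage 1. con-8 fell 254-fold, con-10 225-fold and ccg-13 138-fold. con-13 had no count in any stage 3 library, against 9.94, 8.34 and 8.09 CPM in stage 1, which is at least 513-fold lower by a floor of 3 counts over the 3 libraries. Of 13 conidiation genes listed, 11 were lower and 1 was higher (median log2 change -7.11, against 0.03 for all genes). The exception was ccg-16, with 302 ± 34.8 CPM in stage 3 and 75.6 ± 6.97 CPM in stage 1 (SD, n = 3 each).

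The regulators of conidiation had a median log2 change of -0.24. fl, the zinc cluster protein required for conidial budding, averaged 7.14 ± 0.465 CPM in stage 3 and 27.5 ± 1.81 CPM in stage 1. csp-1, a repressor named for conidial separation, averaged 52.8 ± 3.00 CPM in stage 3 and 188 ± 27.1 CPM in stage 1. ada-1 went the other way, with 75.2, 50.9 and 65.9 CPM in stage 3, against 9.10, 12.5 and 9.76 CPM in stage 1. In all, 5 of 12 regulators and velvet proteins were higher and 6 lower, a balance that turned to 6 higher and 5 lower with library totals.

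Among unnamed genes the falls were as deep. NCU09859 (chromosome VI, 2748412 to 2749502) had no count in stage 3, against 75.2, 56.8 and 57.3 CPM in stage 1, and was at least 3690-fold lower. NCU09231 fell 972-fold and NCU04697 1029-fold. NCU08128 was counted in 1 of the 3 stage 3 libraries, at 0.0625 CPM, against 14.5 to 15.8 CPM in stage 1. mig-4 had 45.3, 44.5 and 48.5 CPM in stage 3, against 3291, 3551 and 3479 CPM in stage 1, and gst-2, a glutathione S-transferase gene by its name, fell 35.9-fold.

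**Figure D2:**
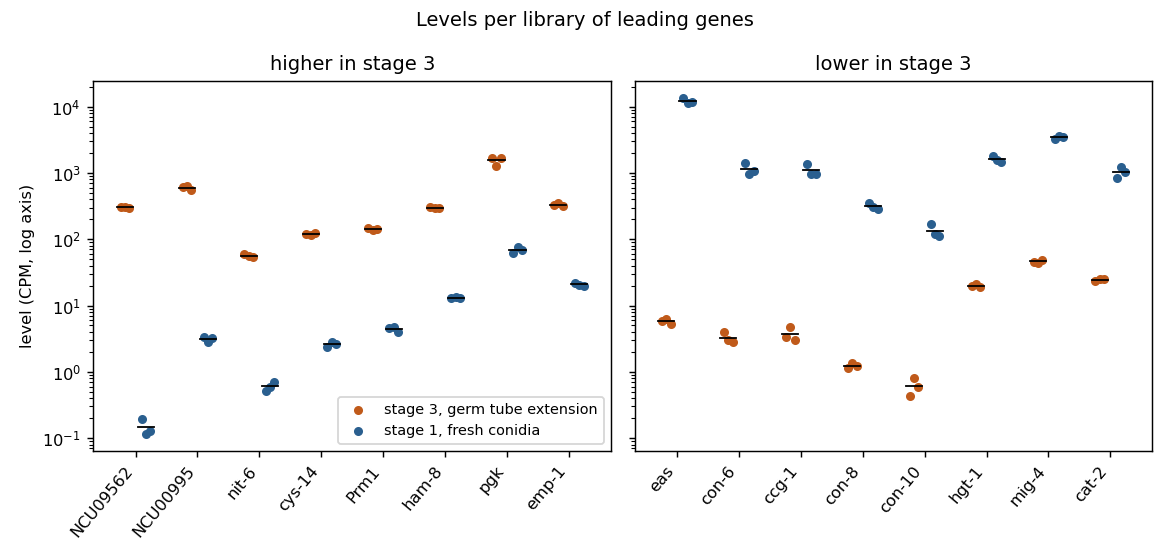
Levels of 8 genes higher in stage 3 (left panel) and 8 genes lower in stage 3 (right panel) in CPM on a log axis. Points are single libraries, orange for stage 3 and blue for stage 1, and black bars are means of 3. In stage 3, pgk had 1262 to 1698 CPM and eas 5.23 to 6.17 CPM.

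Among called genes with at least 10 CPM in 1 stage and no overlap between libraries, the 5 largest rises were of genes with no symbol. NCU09562 had 305, 304 and 301 CPM in stage 3, against 0.197, 0.115 and 0.128 CPM in stage 1 (2025-fold higher, log2 change 10.98 ± 0.16, edgeR adjusted p = 1.1e-14), and its span overlaps that of NCU09561. NCU12068 had 66.2, 72.8 and 58.0 CPM in stage 3, while in stage 1 it was counted in 1 library only, at 0.0908 CPM. NCU03247 had 38.5 to 45.4 CPM in stage 3, against 0 to 0.0454 CPM in stage 1. NCU00995 was 190-fold higher, with 614, 630 and 548 CPM in stage 3, against 3.38, 2.85 and 3.19 CPM in stage 1. No role is given for these genes in the annotation used here.

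Among genes with a symbol, under the same conditions, the largest rise was that of nit-6, the nitrite reductase of nitrate assimilation. It had 59.3, 56.4 and 53.7 CPM in stage 3, against 0.515, 0.590 and 0.705 CPM in stage 1, a 93.5-fold difference. nit-3, the nitrate reductase that acts before it, had 88.6, 90.2 and 93.2 CPM in stage 3, against 18.9, 14.3 and 15.4 CPM in stage 1. nit-10, the nitrate transporter, was 4.93-fold higher, and en(am)-2, glutamate synthase, averaged 557 ± 16.5 CPM in stage 3 and 120 ± 6.20 CPM in stage 1. The pathway activator nit-4 was slightly lower and averaged 22.9 ± 1.44 CPM in stage 3 and 28.6 ± 2.16 CPM in stage 1. Of 13 nitrogen assimilation genes, 7 were higher (53.8%) and 5 lower (38.5%), against 40.7% and 37.8% of all genes tested. In purine breakdown, alc-1, the allantoicase gene, had 82.7, 81.3 and 81.7 CPM in stage 3, against 5.75, 5.45 and 5.03 CPM in stage 1. aln-1, the allantoinase gene that comes before it in the pathway, averaged 61.6 ± 8.28 CPM in stage 3 and 167 ± 7.77 CPM in stage 1.

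cys-14, a sulfate permease, had 120, 117 and 122 CPM in stage 3, against 2.33, 2.78 and 2.66 CPM in stage 1 (46.2-fold higher). In its list, of phosphate, sulfur and iron acquisition, 3 of 18 members were higher, cys-14 included, and 7 lower. tzn-2, a zinc transporter gene by its name, averaged 27.9 ± 1.08 CPM in stage 3 and 114 ± 15.5 CPM in stage 1. bio-1, of biotin synthesis by its name, was 20.2-fold higher and pdx-4, of pyridoxine synthesis, 9.55-fold higher, whereas pdx-1 averaged 3333 ± 230 CPM in stage 3 and 5522 ± 390 CPM in stage 1.

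hgt-1, a high-affinity glucose transporter, had 19.6, 20.8 and 19 CPM in stage 3, against 1820, 1592 and 1462 CPM in stage 1 (82.2-fold lower). inv, the secreted invertase, had 24.1, 26.6 and 27.7 CPM in stage 3, against 1237, 1091 and 1065 CPM in stage 1, and its span overlaps NCU04264. Of 6 sugar transporters and invertase, 4 were lower and 1, cdt-1, was higher.

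Of 10 genes of glycolysis and fermentation, 8 were higher, 1 was lower and 1 was not called (median log2 change 2.32). pgk, phosphoglycerate kinase, had 1698, 1262 and 1683 CPM in stage 3, against 61.6, 77.3 and 67.8 CPM in stage 1 (22.5-fold higher, log2 change 4.49 ± 0.13, edgeR adjusted p = 1.3e-12), and its span overlaps NCU07913. fba, the aldolase, had 1839, 1947 and 1781 CPM in stage 3, against 148, 172 and 148 CPM in stage 1. gpd-1, glyceraldehyde-3-phosphate dehydrogenase, had 4904, 4088 and 4867 CPM in stage 3, against 918, 1144 and 1092 CPM in stage 1. emp-1, one of the genes named after the Embden-Meyerhof pathway, had 328, 350 and 318 CPM in stage 3, against 22.1, 20.5 and 19.7 CPM in stage 1, emp-3 was 8.46-fold higher and emp-7 5.64-fold higher. The enzymes that lead from pyruvate to ethanol were not among those that rose. cfp, pyruvate decarboxylase, averaged 64.1 ± 5.83 CPM in stage 3 and 98.1 ± 2.22 CPM in stage 1, a call that was lost with library totals (adjusted p = 0.066) and with any of 5 libraries left out. adh-1, alcohol dehydrogenase, averaged 3.94 ± 1.02 CPM in stage 3 and 3.67 ± 0.262 CPM in stage 1.

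Gluconeogenesis and the glyoxylate cycle make sugar from stored lipid or acetate. In the list of these pathways and of acetate use, 5 of 7 members were lower and 2 were higher. acu-6, phosphoenolpyruvate carboxykinase, had 5.07, 3.45 and 4.59 CPM in stage 3, against 24.8, 24.4 and 25.2 CPM in stage 1. fbp-1, fructose-1,6-bisphosphatase, averaged 3.37 ± 0.154 CPM in stage 3 and 12.6 ± 2.09 CPM in stage 1, and acu-3, isocitrate lyase, averaged 163 ± 13.3 CPM in stage 3 and 342 ± 58.2 CPM in stage 1. The 2 members that were higher, each by more than 2-fold, were acu-5 and acu-9.

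Storage carbohydrate genes split by enzyme. tre-1, a trehalase that splits the main sugar store of conidia, had 1.58, 2.07 and 1.75 CPM in stage 3, against 105, 84.5 and 76.4 CPM in stage 1 (49.5-fold lower), and its span overlaps NCU10847. tre-2, the other trehalase, averaged 91.6 ± 1.90 CPM in stage 3 and 61.5 ± 6.41 CPM in stage 1. gsy-1, glycogen synthase, had 251, 255 and 247 CPM in stage 3, against 26.8, 27.3 and 23.9 CPM in stage 1. gnn, the glycogenin that primes it, was 2.81-fold higher.

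Of 14 genes of complexes III and IV, cytochrome c and ATP synthase, 12 were higher and 1 was lower (median log2 change 0.72). cyc-1, cytochrome c, had 2628, 2961 and 2514 CPM in stage 3, against 1280, 955 and 1028 CPM in stage 1. oli, the proteolipid of ATP synthase, had 4588, 4341 and 4353 CPM in stage 3, against 2132, 2127 and 2083 CPM in stage 1. The member that fell was cya-5, with 72.3 ± 0.838 CPM in stage 3 and 142 ± 5.50 CPM in stage 1. For the 32 genes of complex I the median was 0.09, with 14 higher, 6 lower and 12 not called. In the pyruvate dehydrogenase and citrate cycle list 15 of 22 members were higher and 5 lower, from tca-16 (6.21-fold higher) to tca-12 (1.91-fold lower).

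The alternative oxidase rose more than any other member of its list. aod-1, which passes electrons from ubiquinol to oxygen without pumping protons, had 441, 422 and 387 CPM in stage 3, against 26.9, 27.2 and 25.5 CPM in stage 1 (15.7-fold higher, log2 change 3.97 ± 0.18, edgeR adjusted p = 1.3e-10). The zinc cluster activators of aod-1 were lower in the same libraries. aod-2 had 61.8, 52.4 and 63.0 CPM in stage 3, against 96.6, 98.0 and 94.2 CPM in stage 1, and aod-5 had 102, 79.5 and 105 CPM in stage 3, against 137, 191 and 188 CPM in stage 1. aod-3, a second alternative oxidase gene, averaged 3.13 ± 0.159 CPM in stage 3 and 6.51 ± 1.42 CPM in stage 1. At the outer membrane, por, the porin, had 1708, 1462 and 1706 CPM in stage 3, against 352, 410 and 392 CPM in stage 1. tob55, which inserts porin and other barrel proteins, was 5.29-fold higher and its span overlaps NCU05594. Import genes as a whole did not lean either way, with 10 of 29 higher and 11 lower, and 13 higher and 9 lower with library totals.

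Of 30 proteasome genes listed, 29 were higher in stage 3, all by more than 2-fold, and 1 was lower (median log2 change 2.15). The proteasome degrades proteins marked with ubiquitin, and the list holds the core particle genes (pca and pcb) and those of the regulatory particle (rpn and rpt). rpn-3 had 176, 147 and 174 CPM in stage 3, against 15.6, 15.4 and 16.8 CPM in stage 1 (10.4-fold higher, overlapping NCU02225). rpn-6 had 102, 110 and 99.3 CPM in stage 3, against 12.2, 12.7 and 12.8 CPM in stage 1. pcb-5 was 7.08-fold higher and pca-3 6.81-fold higher, and both overlap a neighbouring gene. The exception was rpn-4, with 39.5, 37.9 and 41.4 CPM in stage 3, against 491, 586 and 572 CPM in stage 1 (13.9-fold lower, log2 change -3.79 ± 0.09, edgeR adjusted p = 2.9e-13). In budding yeast the protein of that name is not a subunit but a transcription factor that activates proteasome genes. All 7 genes of the COP9 signalosome, a complex related in architecture to the proteasome lid, were higher too, by smaller amounts, from csn-2 (51.2 ± 6.22 CPM in stage 3 and 39.8 ± 6.23 CPM in stage 1) to csn-3 (51.8 ± 2.02 CPM in stage 3 and 18.7 ± 1.36 CPM in stage 1).

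The list of cytosolic ribosomal protein genes holds only the 11 matched by symbol and may leave out others. Of these 11, 0 were called by edgeR, and 0 had an unadjusted p below 0.05. Their median log2 change was 0.01, with a range of -0.13 to 0.27. DESeq2 called 2 of them lower, and library totals called 1 higher. crp-5 averaged 3595 ± 337 CPM in stage 3 and 3574 ± 337 CPM in stage 1, and crp-7 had 2356, 2644 and 2291 CPM in stage 3, against 2522, 2118 and 2292 CPM in stage 1. crp-7 and tef-1, which encodes translation elongation factor 1-alpha, were among the 5 most abundant protein-coding transcripts per length in both stages. tef-1 averaged 7628 CPM per kb in stage 3 and 6577 CPM per kb in stage 1, and its call (log2 change 0.21, edgeR adjusted p = 0.031) was lost with DESeq2 (adjusted p = 0.11), with its size factors, in the fit of the 6 libraries alone, with both rRNA rows kept, and when stage 3 replicate 1 or 3 or stage 1 replicate 1 was left out.

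**Figure D3:**
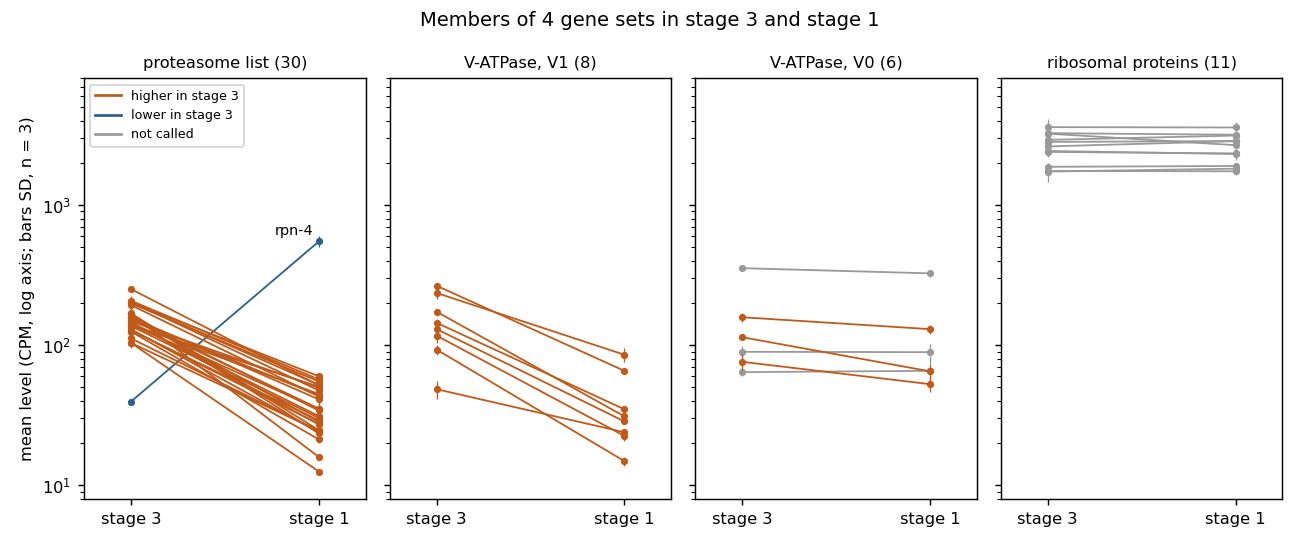
Mean level of each member of 4 gene sets in stage 3 and in stage 1 in CPM on a log axis, with bars for the SD of 3 libraries and 1 line per gene. In the proteasome list 29 lines fall towards stage 1 and only rpn-4 rises. The lines of the V1 sector fall too, and those of the V0 sector and of the ribosomal proteins listed are nearly flat.

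The genes of the vacuolar proton pump are given by sector, a division of the list made after its values were seen. The V-ATPase consists of a V1 sector that splits ATP in the cytosol and a V0 sector that carries protons through the membrane. All 8 V1 genes were higher by 2.02-fold to 6.24-fold (median log2 change 2.12), with a summed level of 1208 CPM in stage 3 and 307 CPM in stage 1. vma-13 had 90.7, 102 and 86.9 CPM in stage 3, against 15.8, 15.2 and 13.7 CPM in stage 1. Of 6 V0 genes 3 were higher, none by more than 2-fold (largest 1.75-fold, median log2 change 0.20), with a summed level of 856 CPM in stage 3 and 728 CPM in stage 1. pma-1, the proton pump of the plasma membrane, was slightly lower, with 4990 ± 450 CPM in stage 3 and 6668 ± 955 CPM in stage 1. The difference between the sectors was not tested.

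Of 14 heat shock proteins and chaperones, 3 were higher and 9 lower. grp78, the Hsp70 of the endoplasmic reticulum, had 778, 760 and 756 CPM in stage 3, against 74.1, 103 and 81.4 CPM in stage 1 (8.86-fold higher). erp38, a protein of the same compartment by its name, was 2.49-fold higher, and hsp90a averaged 387 ± 8.68 CPM in stage 3 and 213 ± 26.6 CPM in stage 1. hsp70-1 averaged 3383 ± 461 CPM in stage 3 and 6958 ± 1399 CPM in stage 1, hsp80 was 2.15-fold lower, and hsp30, a small heat shock protein, averaged 62.2 ± 7.44 CPM in stage 3 and 117 ± 25.9 CPM in stage 1. The regulator gene hsf-1 was lower as well, with a log2 change of -0.82. All cultures were kept at 37 °C, but stage 1 was sampled after 15 min and stage 3 later. The time spent at 37 °C thus differed with stage, and its effect was not tested.

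All 4 catalase genes were lower in stage 3. cat-2, a catalase-peroxidase, had 23.5, 24.9 and 25.1 CPM in stage 3, against 846, 1233 and 1039 CPM in stage 1 (42.5-fold lower). cat-3 had 18.5, 14.9 and 17.7 CPM in stage 3, against 274, 444 and 462 CPM in stage 1, and cat-1, the conidial catalase, fell 18.7-fold. sod-1, the copper-zinc superoxide dismutase, was instead 4.63-fold higher, and nox-1, an NADPH oxidase that makes superoxide, had 146, 144 and 142 CPM in stage 3, against 11.3, 14 and 12.5 CPM in stage 1.

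Genes of cell fusion and of its MAK-2 kinase pathway rose as a group, with 15 of 18 higher and 2 lower (median log2 change 1.26). Prm1, a membrane protein that acts in plasma membrane merger, had 148, 137 and 143 CPM in stage 3, against 4.54, 4.77 and 3.97 CPM in stage 1 (32.2-fold higher). ham-8, 1 of 3 plasma membrane proteins needed for fusion, had 307, 293 and 299 CPM in stage 3, against 13.1, 13.4 and 13.1 CPM in stage 1. The other two, ham-6 and ham-7, were 11.7-fold and 10.6-fold higher. The members that fell were ada-3, a transcription factor gene, and prm-1, for which the table used here gives no role and which should not be taken for Prm1. tol, of vegetative incompatibility between mating types, had 18.3, 16.4 and 17.8 CPM in stage 3, against 0.499, 0.377 and 0.176 CPM in stage 1. Of the cell wall MAP kinase pathway, mak-1 was 2.99-fold and mek-1 2.77-fold higher, although with the osmotic pathway 7 members were higher and 5 lower. pkac-1, a catalytic subunit of protein kinase A, averaged 106 ± 7.62 CPM in stage 3 and 11.1 ± 1.47 CPM in stage 1.

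Polarity and septation genes rose by smaller factors. Of 23 genes of actin, polarity and myosin, 17 were higher and 2 lower (median log2 change 0.43). These are 73.9% and 8.70%, against 40.7% and 37.8% of all genes tested. act, actin, had 1700, 1293 and 1427 CPM in stage 3, against 422, 605 and 475 CPM in stage 1, and tba-1, an alpha-tubulin gene, was 3.03-fold higher. bni1, the formin that nucleates actin cables, averaged 232 ± 34.6 CPM in stage 3 and 320 ± 57.4 CPM in stage 1. Of 9 septation genes, 6 were higher and none was lower by edgeR, DESeq2 or an unadjusted p below 0.05. hex-1, which forms the Woronin bodies that plug damaged septa, had 1513, 1337 and 1444 CPM in stage 3, against 327, 370 and 334 CPM in stage 1, and overlaps NCU16405. Of 9 histone genes, 7 were higher. The 6 genes of linker and main core histones were each more than 2-fold higher, such as hH1 (3.85-fold) and hH2B (3.68-fold), whereas hH3v was higher by a log2 change of 0.21, and hH2Az and hH4v were not called.

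Genes of the cell wall changed in both directions. Of 17 cell wall proteins, 6 were higher (35.3%) and 10 lower (58.8%), against 40.7% and 37.8% of all genes tested. acw-10 had 299, 301 and 280 CPM in stage 3, against 19.9, 15.9 and 16 CPM in stage 1, and acw-9 had 2148, 1503 and 2064 CPM in stage 3, against 182, 217 and 219 CPM in stage 1. ncw-6 fell 43.7-fold, with 1.47, 1.10 and 1.06 CPM in stage 3, against 67.8, 47.4 and 44.3 CPM in stage 1. ncw-3 averaged 5.03 ± 0.630 CPM in stage 3 and 87.7 ± 14.3 CPM in stage 1. Of 5 chitin synthases only chs-3 was higher, with 144, 149 and 143 CPM in stage 3, against 34.3, 38.7 and 37.0 CPM in stage 1, while chs-5 was lower and 3 were not called. Among glucan enzymes, gh16-1 was 16.1-fold higher, gel-1 14-fold lower and gel-3 3.23-fold lower. Of 9 members of the ergosterol and fatty acid list, 6 were higher and 2 lower, with erg-4 8.54-fold higher and fpp, farnesyl pyrophosphate synthase, 6.21-fold higher. Of the fatty acid synthase genes, cel-1 was not called, at 696 ± 117 CPM in stage 3 and 707 ± 35.3 CPM in stage 1, and cel-2 was slightly lower, at 899 ± 89.0 CPM in stage 3 and 1132 ± 114 CPM in stage 1.

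**Figure D4:**
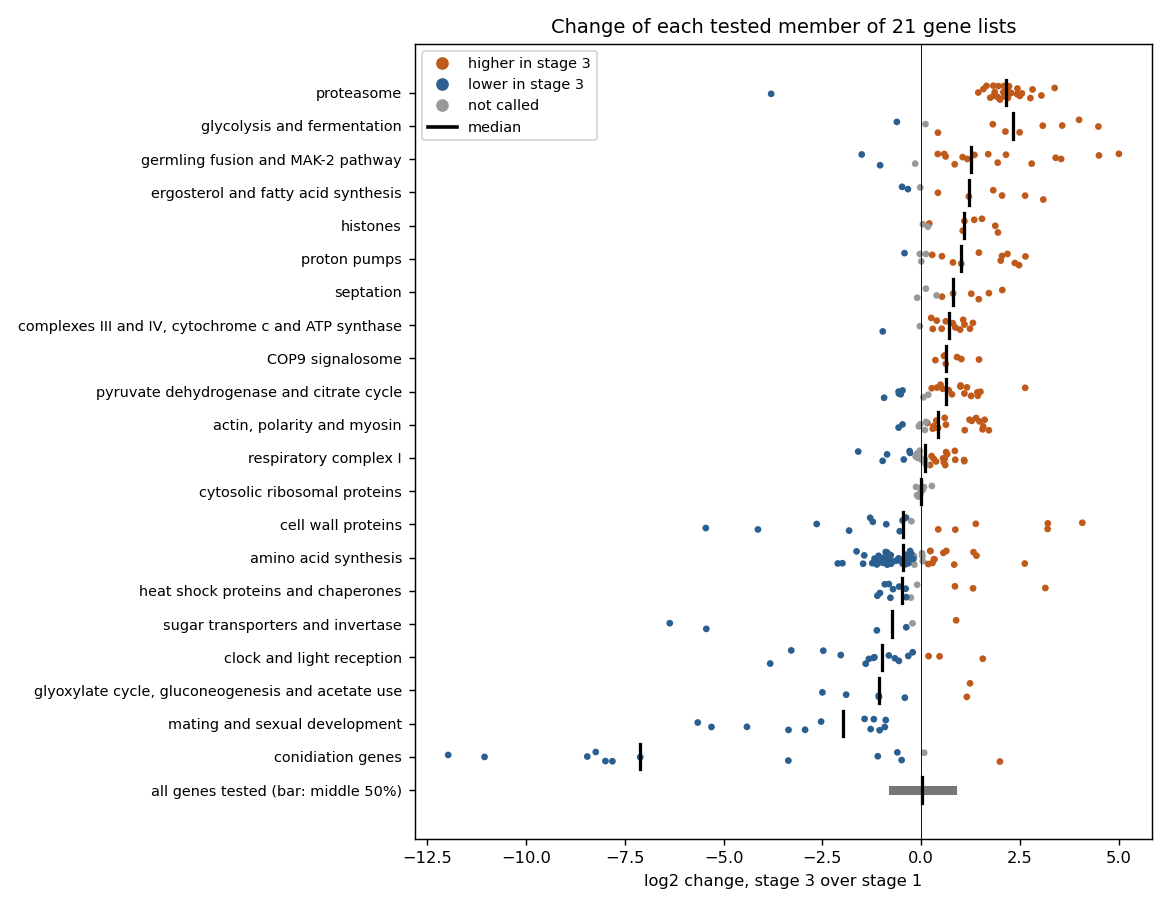
Log2 change of stage 3 over stage 1 for each tested member of 21 gene lists, 1 point per gene, with black bars for list medians and a grey bar for the middle 50% of all 8334 genes tested. Points are orange where higher in stage 3, blue where lower and grey where not called. Medians run from 2.32 for glycolysis and 2.15 for the proteasome to -7.11 for conidiation genes.

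Of 57 genes of amino acid synthesis, 38 were lower and 11 higher (median log2 change -0.46). arg-13 had 45.6, 45.1 and 44.9 CPM in stage 3, against 186, 188 and 212 CPM in stage 1, and trp-3, tryptophan synthase, was 3.10-fold lower. Both overlap a neighbouring gene. cpc-1, the transcription factor of general amino acid control, had 3012, 3380 and 3114 CPM in stage 3, against 4783, 5323 and 5253 CPM in stage 1. met-8, methionine synthase, went against the list, with 4294, 3757 and 4279 CPM in stage 3, against 558, 718 and 722 CPM in stage 1 (6.17-fold higher). pyr-3, of pyrimidine synthesis, was 3.18-fold lower, and mtr, a permease of neutral amino acids, 2.73-fold lower.

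Of 16 genes of the clock and of light reception, 13 were lower and 3 higher (median log2 change -0.997). frq, the central negative element of the clock, had 50.3, 53.7 and 50.7 CPM in stage 3, against 428, 518 and 563 CPM in stage 1 (9.75-fold lower). wc-2, a partner in the complex that activates frq, averaged 64.2 ± 2.06 CPM in stage 3 and 56.2 ± 1.24 CPM in stage 1. nop-1, an opsin, fell 14.1-fold and phr, a photolyase, 4.09-fold. Of 7 carotenoid genes 2 were higher and 3 lower. al-2, phytoene synthase, averaged 23.0 ± 0.804 CPM in stage 3 and 86.9 ± 7.70 CPM in stage 1, while al-3, which makes its geranylgeranyl pyrophosphate substrate, was 3.74-fold higher and overlaps NCU01426. Of 46 tested genes of DNA replication and repair, 22 were higher (47.8%) and 15 lower (32.6%), against 40.7% and 37.8% of all genes tested. The deepest fall in this list was that of rad16, with 11.9, 13.7 and 12.6 CPM in stage 3, against 160, 152 and 148 CPM in stage 1.

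Genes of mating and sexual development were all lower where tested, 12 of 12, with 5 more not tested. app, an abundant perithecial protein, had 0.932, 1.14 and 1.17 CPM in stage 3, against 64.7, 48.2 and 50.1 CPM in stage 1, and overlaps NCU04532. ccg-4, the pheromone precursor of mat A strains, had 0.616, 0.444 and 0.344 CPM in stage 3, against 18.9, 18.4 and 18.6 CPM in stage 1. matA-1, the mating type gene of this strain, was 10.2-fold lower.

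The study's 20 secondary metabolism clusters (SMCs) hold 177 genes, of which 140 were tested, with 55 higher and 66 lower (median log2 change -0.22). The higher share, 39.3%, was near the 40.7% of all genes tested, and the lower share, 47.1%, was above their 37.8%. With library totals 56 were higher and 56 lower. The list was drawn up by the study, whose samples include these libraries. SMC no. 18 had the highest median log2 change of the 20 clusters, 1.093, with 7 of 9 tested genes higher and 2 lower. It holds NCU12022, with 230, 165 and 218 CPM in stage 3, against 0.863, 1.83 and 1.33 CPM in stage 1, and NCU12021, with 262, 229 and 253 CPM in stage 3, against 1.82, 2.05 and 2.27 CPM in stage 1. The spans of these neighbours overlap. SMC no. 20, the largest with 19 genes, had 6 higher and 7 lower of 15 tested. The median log2 change of its tested genes, -1.355, was the lowest of the 20 clusters. Its member poi-2, a gene of sexual development, had 5.83, 6.17 and 4.39 CPM in stage 3, against 148, 99.2 and 99.0 CPM in stage 1. SMC no. 17 had 4 of 5 tested genes lower and 1 not called. Of 8 polyketide synthase genes 2 were higher, among them csy, with 17.4 ± 1.27 CPM in stage 3 and 3.15 ± 0.465 CPM in stage 1, and 1 was lower.

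Beside stage 3, levels in stages 2 and 4 took several courses. The mean profiles of stages 2 and 4 were nearly alike (SD 0.0726), against 0.36 between stage 3 and each of them. Whether a peak or a low in stage 3 came from development or from the handling of its libraries was not tested. Among proteasome and glycolysis genes, rpn-3 (162 CPM in stage 2, 160 CPM in stage 4) and fba (1699 CPM in stage 2, 1670 CPM in stage 4) were near their stage 3 level. aod-1 averaged 66.7 CPM in stage 2 and 72.1 CPM in stage 4, below its stage 3 level of 416 CPM. bio-1 averaged 67.9 CPM in stage 2 and 67.8 CPM in stage 4, against 240 CPM in stage 3. eas and hgt-1 were lowest in stage 3, with 64.3 CPM and 73.3 CPM in stage 2 and 64.7 CPM and 74.0 CPM in stage 4.

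**Figure D5:**
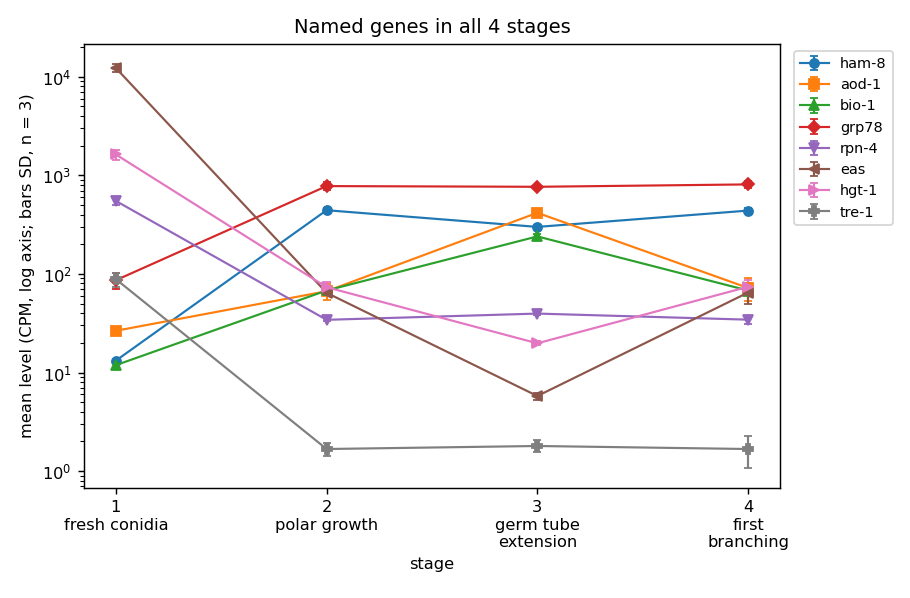
Mean levels of 8 named genes in stages 1 to 4 in CPM on a log axis, with bars for the SD of 3 libraries. grp78 and ham-8 stay high after stage 1 and tre-1 and rpn-4 stay low, whereas aod-1 and bio-1 peak in stage 3 and eas and hgt-1 are lowest there.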

How the data were processed

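Poly(A) RNA was sequenced as stranded paired-end libraries. Per the labels, the submitters' processing notes name CASAVA 1.8.2, HISAT2 2.1.0 and StringTie 1.3.3b. The authors aligned trimmed reads to the OR74A genome, dropped low-quality alignments and deposited expected counts (estimated counts per gene, whole numbers derived from coverage, not normalized). A fragment can add more than 1 count, so floors cover counting error only. Alignment was set to the library strand, whether counting was is not given in the sources used here, and overlapping genes are named as such. The second deposited table, of ratios over pooled stages and fit diagnostics made by the authors, was not used.

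Stages were taken from the titles. All 12 libraries entered 1 edgeR 4.0.16 quasi-likelihood fit (R 4.3.3, limma 3.58.1) with 1 coefficient per stage, TMM factors and filterByExpr (minimum count 10, minimum total 15). The rows NCU17319 and NCU15719 were left out. The filter removed 2256 of 10590 genes, and 7673 of those tested reached its level in both stages. The contrast was stage 3 minus stage 1, adjusted by the Benjamini-Hochberg method over all 8334 genes, with a threshold of 0.05. SE is the size of the log2 change over the square root of F. Gene names came from RefSeq (assembly NC12), which matched 10590 of 10592 IDs, 1118 with a symbol. The gene lists by function hold only genes with a symbol, so they can leave out members of a class. CPM per kb used the annotated gene span, introns included, in place of the coding length planned.

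The genes named were the 15 largest rises and falls with a symbol, the 5 largest of any gene, up to 4 each way per list (any member of lists of 12 or fewer), the 5 most abundant per length in each stage and the 5 steadiest abundant ones. Largest changes had to be called, reach 10 CPM in 1 stage and, outside the lists, not overlap between libraries. con-13 is a marker, and the V-ATPase sectors and neighbour runs were chosen after values were seen. Members and lists were chosen with earlier results of these data known. The fit was tested on simulated data with 200 changed genes of 8227 and 1 spread for all genes. It recovered 76% of genes changed 1.5-fold, 92% at 2-fold and 100% at 4-fold, and 2.65% of its calls were false. Far more genes were called in the real data, so this does not give the error rate there. Alternatives were other scalings, no filter, DESeq2 1.42.0, the 6 libraries alone, a replicate block, a required 2-fold change, the rRNA rows and each library left out. Tables and plots used Python 3.11.15, pandas 2.3.3, numpy 2.4.6, scipy 1.17.1 and matplotlib 3.10.9.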

Additional observations from a re-analysis of the deposited data

How the results depend on the processing

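Requiring a 2-fold change lowered the count of changed genes most, to 2411 (1278 higher, 1133 lower), since a stricter hypothesis was tested. Under all other alternatives the counts stayed within 1.5 times those reported. Leaving out each library in turn gave 6309 to 6528 changed genes (3271 to 3400 higher, 3038 to 3128 lower). The 6 libraries alone gave 6284, no filter gave 6588 of 9649, and DESeq2 gave 6557, with 6332 of the 6545 calls kept in the same direction. The share of called genes that were higher was 48.8% with the size factors of DESeq2, 57.7% with library totals and 51.9% with TMM, and none of the calls shared with an alternative changed direction. The deviations of same-numbered libraries from their stage means gave r = -0.19, -0.39 and 0.34, and those of differently numbered ones -0.41 to 0.41. With 3 libraries per stage, whose deviations are tied to each other, this cannot decide whether the numbers pair the libraries. The labels do not say so. A fit with the replicate block gave 6496 changed genes (3368 higher, 3128 lower).

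Of 420 named genes tested, 28 lost their call under some alternative other than the 2-fold requirement, mostly those with small changes. nor-1 had a log2 change of -0.13 and reversed to 0.0012 with library totals, where it was not called. The cause was not tested. Among protein genes of the mitochondrial genome, the rises of NCU16016 and NCU16017 rested on stage 3 replicate 2: NCU16017 had 4.96, 152 and 4.96 CPM in stage 3, against 3.87, 2.16 and 3.59 CPM in stage 1, and without that library its log2 change was 0.63 (adjusted p = 0.17). Genes under the floor of 0.0454 to 0.0634 CPM cannot be told from absent.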

Other observations

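Neighbouring genes sometimes changed together. In 7 places at least 4 adjacent protein-coding genes all changed by more than 4-fold in the same direction, 5 of them higher in stage 3 and 2 lower. The longest ran over 5 genes on chromosome V (NCU01107 to NCU01112, 2938578 to 2947541), all lower, with log2 changes of -7.86 to -2.13. On chromosome V, 858215 to 865559, a run of 4 genes that begins with gh6-2 was higher, with log2 changes of 2.25 to 2.89. On chromosome VII, 3987604 to 3997161, a run of 4 that includes gh47-4 was higher, with log2 changes of 2.85 to 10.22. Another on chromosome VII, 3736005 to 3741859, was lower and lies in SMC no. 20. The search was made after the values were seen, some of these genes are under 1 CPM in both stages, and no test of neighbourhood was made.

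Members of the gh47 family moved in opposite directions, with 4 of 7 tested genes higher and 3 lower. gh47-4, of a family that trims mannose from glycoproteins, averaged 146 ± 5.02 CPM in stage 3 and 15.3 ± 0.414 CPM in stage 1, while gh47-5 averaged 0.288 ± 0.134 CPM in stage 3 and 8.66 ± 0.349 CPM in stage 1. gh61-2, named for a family of cellulose-active oxidases, averaged 68.0 ± 9.29 CPM in stage 3 and 1.15 ± 0.215 CPM in stage 1, and gh61-9 was 8.63-fold higher. The regulators clr-1 and xlr-1 of plant cell wall enzymes were lower in the same libraries, xlr-1 with 4.59, 6.09 and 4.18 CPM in stage 3, against 63.5, 61.4 and 57.2 CPM in stage 1. Of 31 tested genes of the list of cellulases and hemicellulases, 15 were higher (48.4%) and 11 lower (35.5%), against 40.7% and 37.8% of all genes tested. Among the protein kinases (stk, prk, camk), 17 of 62 tested were higher and 32 lower, from camk-2 (44.4 ± 1.24 CPM in stage 3 and 9.43 ± 0.621 CPM in stage 1) to stk-22 (72.6 ± 6.67 CPM in stage 3 and 610 ± 144 CPM in stage 1).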
